A study of Mus musculus with 103 samples.

Results

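The embryos described here are the 21 in the study that were made by injecting a whole sperm into an oocyte, beside 82 made with a sperm head, and they comprise 12 with sperm of the rete testis and 9 with sperm of the cauda epididymis. They were taken by their labels, as every embryo injected with whole sperm, and no measured value entered the choice. All were single FVB mouse embryos that had grown for 28 hours after the injection, in KSOM medium, and had reached the 2-cell stage. The oocytes came from females on the Control diet. The diet of the males is not in the labels of these 21 embryos, and the header of the deposited table gives it by the code C, which it also gives to embryos of Control-fed males. Of the embryos made with sperm heads, 22 from rete and 20 from cauda sperm of Control-fed males are used here for comparison. No label says which embryos share a father or were injected together, so the p-values measure the spread among these embryos, which may be partly technical.

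Sperm leave the seminiferous tubules through the rete testis and then mature while they pass along the epididymis to the cauda, where they are stored. On the way their load of small RNAs changes, above all in fragments of tRNAs. Comparing rete with cauda sperm therefore asks whether an embryo's early mRNA differs with the maturity of the sperm that fathered it, with all parts of the sperm delivered. At the 2-cell stage, maternal mRNA laid down in the oocyte is being destroyed while the embryo's own genome begins to be transcribed, first with a burst of genes driven by MERVL, an endogenous retrovirus, and then with genes for making ribosomes.

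No gene differed between rete and cauda whole-sperm embryos beyond the spread between embryos. Values are CPM, a gene's reads after scaling every embryo to one library total, and differences are in log2(CPM + 1), rete minus cauda, ± their standard error, so that a positive one means higher in rete embryos and 1 is about a doubling for well-expressed genes. Of 7782 genes tested with limma, 0 passed a Benjamini-Hochberg adjusted p under 0.05 (0% of genes, smallest adjusted p = 0.524), and an exact rank-sum test also called 0. At an unadjusted p under 0.05, 507 genes (6.52%) were higher and 155 (1.99%) lower in rete embryos by limma, and 375 higher and 183 lower by the rank-sum test. Genes whose ranges in the 2 sources were free of overlap numbered 0 (0%). The median half-width of the 95% confidence interval of a gene's difference was 0.85. For 2575 genes (33.1%) that interval lay wholly between -1 and 1, and for the others it reached beyond -1 or 1.

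The differences leaned to the positive side, and less so without 1 embryo that stood apart. Of all genes 4478 (57.5%) had a positive difference, with a median of 0.10. Cauda embryo 5 had 6696 genes at 1 CPM or more, against 7479 to 7869 in the other cauda embryos and 7413 to 7848 in rete embryos, although at 6058308 reads it was the deepest library. Without it, 296 genes (3.81%) were higher and 202 (2.6%) lower in rete embryos at an unadjusted p under 0.05, 4162 (53.6%) had a positive difference, and the median was 0.04. Without cauda embryo 3, which lay at the opposite end of the first principal component among cauda embryos, the counts were 771 higher and 249 lower. Quantile normalization brought the median of all genes to -0.02 and the split to 376 higher and 292 lower. Median-of-ratios scaling gave 452 higher and 226 lower. The limma test called 0 genes in each of these settings.

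The embryos carried the markers of their labelled stage. All 8 markers of the 2-cell stage and all 6 oocyte markers fixed for the check were in the table and above 0 in each embryo. The summed level of the 2-cell markers was lowest at 2103, with a median of 3344 and a highest value of 5597 CPM in rete embryos, against 531, 3385 and 6161 CPM in cauda embryos. The oocyte markers summed to 1649, 4723 and 8388 CPM in rete embryos, against 4003, 5390 and 8209.6 CPM in cauda embryos. Depth ran over 587709 to 5275013 reads in rete embryos, with a median of 2806572, against 1721939 to 6058308 reads in cauda embryos, with a median of 4091157. The difference in log2 reads was -0.53 (two-sided exact permutation test, p = 0.171, n = 12 and 9). Genes reaching 1 CPM numbered 7690 ± 144 (SD, n = 12) in rete and 7563 ± 347 (SD, n = 9) in cauda embryos (exact permutation p = 0.327). Each library holds both cells of an embryo, so a lower level in 1 cell and in both cannot be told apart.

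**Figure D1:**
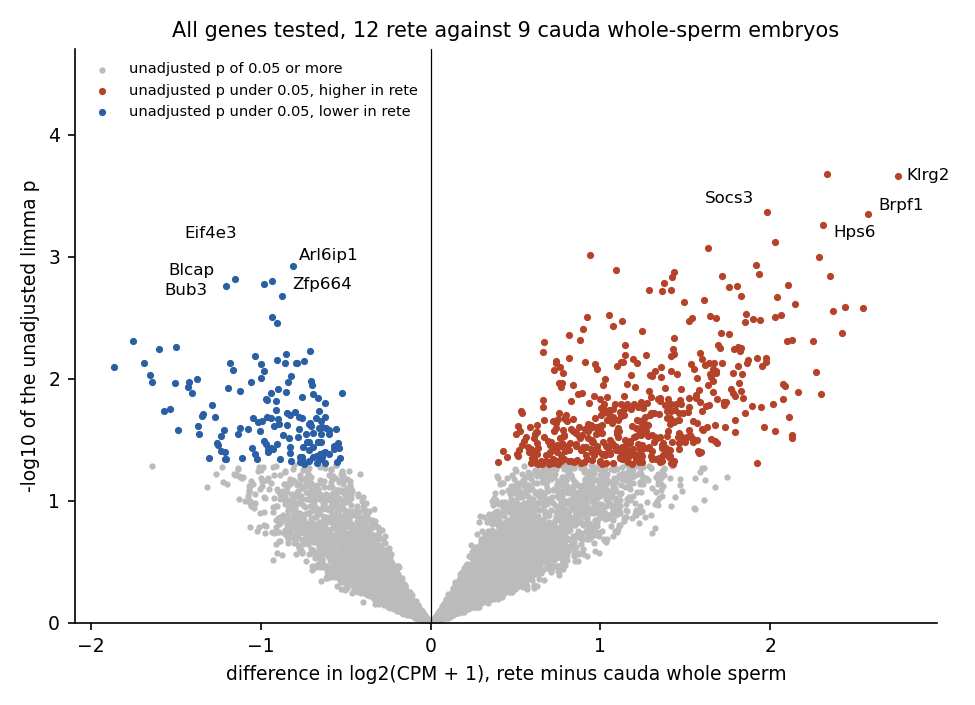
Each point is 1 of 7782 genes, with the difference in log2(CPM + 1) between 12 rete and 9 cauda whole-sperm embryos on the horizontal axis and -log10 of the unadjusted limma p on the vertical axis. Named are 4 of the genes of smallest p on the positive side and 5 on the negative side, 507 genes are coloured as higher and 155 as lower in rete embryos at an unadjusted p under 0.05, and 0 passed after adjustment.

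Among the genes of smallest p on the positive side were Klrg2, Socs3, Brpf1 and Hps6, and none of them passed (adjusted p = 0.524 for each by limma). Values below are the lowest, median and highest embryo of each group, and 0.1 is how the table writes 0. Klrg2, which encodes a C-type lectin-like receptor, was at 0.1, 17.1 and 69.6 CPM in rete embryos, against 0.1, 0.33 and 7.82 CPM in cauda embryos, a difference of 2.76 ± 0.65. It was listed at 0 in 4 cauda embryos and 1 rete embryo, so that this difference depends on the constant added before taking logs. Socs3, a feedback inhibitor of cytokine signalling, was at 41.3, 85.7 and 203 CPM in rete embryos, against 3.22, 25 and 125 CPM in cauda embryos. All 12 rete embryos lay above the cauda median, by a difference of 1.98 ± 0.50.

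Brpf1, a scaffold of histone acetyltransferase complexes, was at 6.41, 35.8 and 91.9 CPM in rete embryos, against 0.1, 3.76 and 56.3 CPM in cauda embryos, and its difference was 2.58 ± 0.65. Hps6, a subunit of the complex that builds lysosome-related organelles, was at 6.16, 42.2 and 93.6 CPM in rete embryos, against 0.1, 7.63 and 22.7 CPM in cauda embryos, and its difference was 2.31 ± 0.59. For all of them but Socs3 at least 2 cauda embryos were at or near 0, and for each of the 4 the ranges of the sources overlapped. On the mm10 assembly Klrg2 lies on chromosome 6 at 38616329 to 38638815 and Socs3 on chromosome 11 at 117966079 to 117970336. Brpf1 lies on chromosome 6 at 113306863 to 113324862 and Hps6 on chromosome 19 at 46003478 to 46006173.

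On the negative side the smallest p belonged to Arl6ip1, Blcap, Zfp664, Eif4e3 and Bub3 (adjusted p = 0.524 for each by limma, none passing). Arl6ip1, a membrane protein that shapes the endoplasmic reticulum, was at 109.7, 164 and 268 CPM in rete embryos, against 174, 307 and 488 CPM in cauda embryos. All 12 rete embryos lay below the cauda median, with a difference of -0.81 ± 0.22 and a 95% interval of -1.27 to -0.35. Blcap, an imprinted gene whose intron holds the gene Nnat, was at 23.8, 118 and 274 CPM in rete embryos, against 120.0, 276 and 353 CPM in cauda embryos, a difference of -1.15 ± 0.33. The use of strand in counting is not given in the sources used here, so reads of Blcap and of genes overlapping it cannot be told apart. Zfp664, a zinc-finger gene, was at 44.7, 116 and 203 CPM in rete embryos, against 129, 206 and 311 CPM in cauda embryos, a difference of -0.94 ± 0.27. These genes were present in every embryo, and their differences were smaller than those of the genes on the positive side but measured with less spread. Eif4e3, a member of the cap-binding eIF4E family, was at 93.1, 189 and 347 CPM in rete embryos, against 159, 312 and 1075 CPM in cauda embryos, a difference of -0.98 ± 0.28. Bub3, a spindle checkpoint gene, was at 21.3, 39 and 66.1 CPM in rete embryos, against 43.2, 76.2 and 527 CPM in cauda embryos, where the highest cauda value is that of embryo 5. Its difference was -1.20 ± 0.35, and -0.89 ± 0.28 without that embryo.

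**Figure D2:**
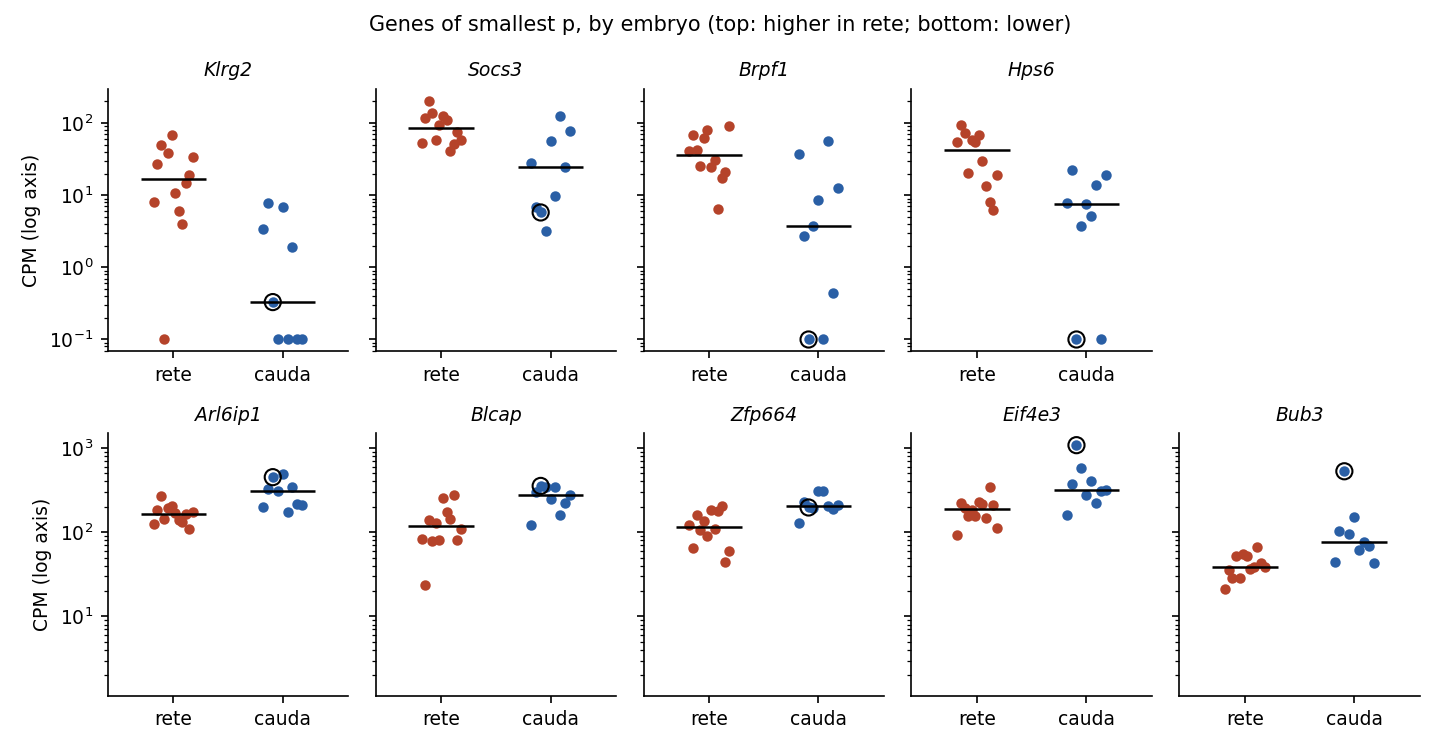
CPM on a log axis in each of the 12 rete and 9 cauda whole-sperm embryos for 4 of the genes of smallest p on the positive side (top) and the 5 of smallest p on the negative side (bottom), where lines are medians, circles mark cauda embryo 5 and 0.1 stands for 0. In the top row cauda embryos reach down to 0 for Klrg2, Brpf1 and Hps6, and in all 9 panels the groups overlap.

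Most genes of ribosomal proteins had a positive difference between rete and cauda whole-sperm embryos, and none of them passed. Of 76 cytosolic ribosomal protein genes 72 had a positive difference, beside 57.5% of all genes. At an unadjusted p under 0.05, 20 were higher and 0 lower, beside 6.52% and 1.99% of all genes, and their median difference was 0.61, beside 0.10 over all genes. Without cauda embryo 5 the same 72 of 76 count was positive and 12 were higher at that level, beside 53.6% and 3.81% of all genes. The median was then 0.54. The median was 0.40 without cauda embryo 6, which held the lowest level of these genes, and 0.43 after quantile normalization. The 2 of smallest p were Rpl39 and Rps25, of the large and the small subunit. Rpl39 was at 5.21, 18.5 and 44 CPM in rete embryos, against 0.978, 6.94 and 20.4 CPM in cauda embryos, a difference of 1.44 ± 0.49 (limma adjusted p = 0.527). Rps25 was at 3.58, 18.3 and 52.8 CPM in rete embryos, against 1.04, 3.47 and 36.5 CPM in cauda embryos, a difference of 1.64 ± 0.57 (adjusted p = 0.527), and 12 of 12 rete embryos lay above the cauda median. Both have processed pseudogenes that can take their reads, and at these levels 1 read is worth up to 1.70 CPM in the shallowest embryo.

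Genes that build and modify ribosomal precursors were also mostly on the positive side. Of 112 ribosome biogenesis and nucleolar genes tested, 86 had a positive difference (median 0.39), beside 57.5% of all genes. At an unadjusted p under 0.05, 12 were higher and 0 lower, beside 6.52% and 1.99% of all genes, and 0 passed by limma. Without cauda embryo 5, 8 were higher and 0 lower, beside 3.81% and 2.6%, and the median was 0.31. Las1l, which is needed for cutting the precursor of the large subunit's rRNA, was at 31.6, 65 and 139 CPM in rete embryos, against 2.19, 30.7 and 135 CPM in cauda embryos. All 12 rete embryos lay above the cauda median, and the difference was 1.65 ± 0.51 (adjusted p = 0.524). Of 34 genes of RNA polymerases I and III, which make rRNA and tRNA, 25 had a positive difference (median 0.46). At an unadjusted p under 0.05, 3 were higher, where the background is 6.52% of all genes. Without cauda embryo 5, 1 was higher, where it is 3.81%. Polr1e, a polymerase I subunit that stands in both lists, was at 3.85, 30.1 and 106 CPM in rete embryos, against 0.1, 7.55 and 42.5 CPM in cauda embryos, a difference of 2.10 ± 0.69 (adjusted p = 0.527). Polr3a, the largest subunit of polymerase III, was at 23.6, 74.2 and 194 CPM in rete embryos, against 10.9, 54.5 and 83.2 CPM in cauda embryos, a difference of 0.91 ± 0.39 (adjusted p = 0.553).

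The level of a list in an embryo, its members' mean log2(CPM + 1), showed how far single embryos differ. For ribosomal protein genes the lowest, median and highest levels were 3.51, 4.73 and 5.51 in rete embryos, against 2.81, 4.0 and 5.66 in cauda embryos. The ranges overlapped over nearly their whole length, since the highest level of all belonged to cauda embryo 3 and 9 of 12 rete embryos lay above the cauda median. For ribosome biogenesis genes the levels were 3.71, 4.61 and 5.98 in rete embryos, against 3.38, 4.25 and 5.51 in cauda embryos, again with 9 of 12 rete embryos above the cauda median. In both lists the spread within a source was wider than the difference between the sources. The SD of the ribosomal protein level was 0.74 in rete and 0.83 in cauda embryos, beside a difference in mean level of 0.65.

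**Figure D3:**
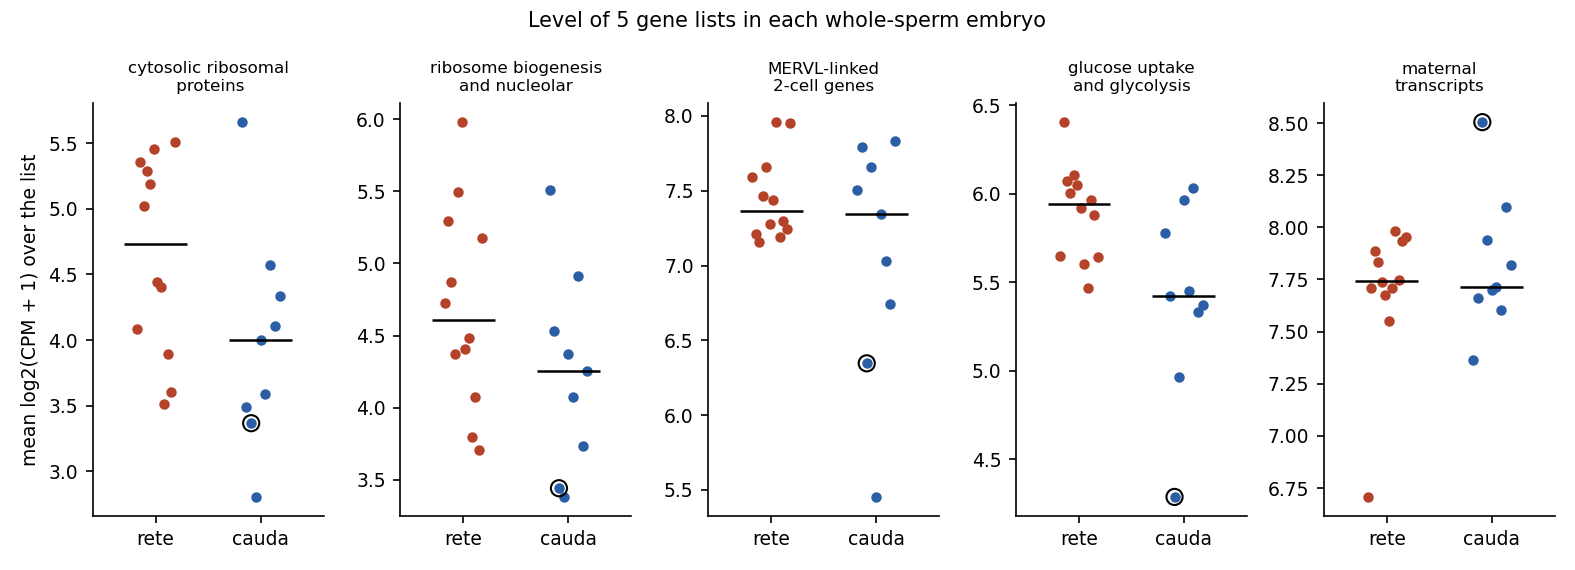
Mean log2(CPM + 1) over the members of 5 gene lists in each of the 12 rete and 9 cauda whole-sperm embryos, with lines at the medians and a circle around cauda embryo 5. The groups overlap in every list, cauda embryo 7 is lowest for MERVL-linked genes at 5.45, and rete embryo 1 is lowest for maternal transcripts at 6.71.

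Genes of the first wave of embryonic transcription also leaned to the positive side, through a few cauda embryos. Of 65 MERVL-linked 2-cell genes 56 had a positive difference (median 0.27), beside 57.5% of all genes. At an unadjusted p under 0.05, 7 were higher and 0 lower, beside 6.52% and 1.99% of all genes, and 0 passed. Without cauda embryo 5, 54 were positive and 3 higher at that level, beside 53.6% and 3.81% of all genes. The median was 0.06 without cauda embryo 7 and 0.45 without cauda embryo 4. The level of the list was 7.16, 7.37 and 7.96 in rete embryos, against 5.45, 7.35 and 7.83 in cauda embryos, and cauda embryos 7 and 5 were the 2 lowest. Pramel6, a PRAME-family gene, was at 33.2, 85.7 and 153 CPM in rete embryos, against 0.99, 37.4 and 79.1 CPM in cauda embryos, and 10 of 12 rete embryos lay above the cauda median. Its difference was 1.76 ± 0.51 (limma adjusted p = 0.524), and 1.31 ± 0.41 without cauda embryo 5. Pramef25, of the same family, was at 301, 669 and 1136 CPM in rete embryos, against 78.1, 473 and 870.4 CPM in cauda embryos, a difference of 0.97 ± 0.37 (adjusted p = 0.55). Many of these genes have near-identical copies, so how reads were shared among them is uncertain.

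None of the 8 markers of the 2-cell stage passed, and the ranges of the sources overlapped for each. The largest differences were those of Tdpoz1, at 28.5, 79.3 and 321 CPM in rete embryos, against 2.13, 65.2 and 285 CPM in cauda embryos (1.34 ± 0.68, limma adjusted p = 0.595), and Tdpoz4, at 151, 365 and 1079 CPM in rete embryos, against 40.3, 253 and 1075 CPM in cauda embryos (0.95 ± 0.44, adjusted p = 0.568), both of a multigene family in which reads may be shared. Tdpoz4 had an unadjusted p of 0.0398. Zscan4d, a telomere regulator of 2-cell embryos, was at 315, 632 and 1573 CPM in rete embryos, against 101, 635 and 1193 CPM in cauda embryos, a difference of 0.33 ± 0.38 (adjusted p = 0.823). Zfp352, a zinc-finger gene of this stage, was at 428, 864 and 1322 CPM in rete embryos, against 142, 938 and 1306 CPM in cauda embryos, a difference of 0.29 ± 0.34 (adjusted p = 0.827). The differences of the other 4 lay between -0.06 and 0.21.

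Transcripts laid down in the oocyte were more often on the negative side, and none passed. Of 87 maternal transcripts 29 had a positive and 58 a negative difference (median -0.18), where 57.5% of all genes had a positive one. At an unadjusted p under 0.05, 5 were higher and 6 lower, beside 6.52% and 1.99% of all genes. Without cauda embryo 5, 4 were higher and 1 lower, beside 3.81% and 2.6% of all genes. The median was -0.05 without cauda embryo 5 and -0.06 without rete embryo 1. The level of the list was 6.71, 7.74 and 7.98 in rete embryos, against 7.36, 7.71 and 8.50 in cauda embryos. Rete embryo 1 held the lowest level and cauda embryo 5 the highest, and the other 19 embryos lay between 7.36 and 8.10. Obox3, of a homeobox gene family with similar copies in the genome, was at 323, 566 and 1159 CPM in rete embryos, against 32.6, 369 and 1271 CPM in cauda embryos, a difference of 1.43 ± 0.47 (adjusted p = 0.527). Its lowest values were those of cauda embryos 5 and 7 (32.6 and 46.7 CPM), the lowest embryos for MERVL-linked genes. Dppa5a, an RNA-binding protein gene of oocytes and pluripotent cells, was at 12.4, 45.6 and 117 CPM in rete embryos, against 4.86, 25.5 and 86.6 CPM in cauda embryos, a difference of 1.29 ± 0.48 (adjusted p = 0.55). Both run against the median of their list, and whether the Obox3 RNA came from the oocyte was not tested.

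The 8 genes of the subcortical maternal complex, a protein assembly under the oocyte surface that the embryo needs for its first divisions, had 3 positive differences (median -0.15). This median was -0.28 to 0.05 without single embryos, positive without rete embryo 1 and most negative without cauda embryo 5. Nlrp4f was at 594, 1738 and 4129 CPM in rete embryos, against 425, 1295 and 2293 CPM in cauda embryos, a difference of 0.57 ± 0.34 (limma adjusted p = 0.629). Zbed3, another member, was at 3688, 10770.0 and 23188 CPM in rete embryos, against 8681, 13579 and 15584 CPM in cauda embryos, a difference of -0.38 ± 0.25 (adjusted p = 0.676) with a 95% interval of -0.90 to 0.14. For Zbed3 that interval lies within -1 to 1, so a doubling or halving of its level is outside it.

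Sugar metabolism was the only one of 23 lists in which the level of every rete embryo lay above the cauda median. Of 24 genes of glucose uptake and glycolysis 19 had a positive difference (median 0.51), beside 57.5% of all genes. At an unadjusted p under 0.05, 6 were higher and 0 lower, beside 6.52% and 1.99% of all genes, and 0 passed. Without cauda embryo 5, 4 were higher and 0 lower, beside 3.81% and 2.6%. The median was 0.41 without cauda embryo 5 and 0.32 without rete embryo 2. The level of the list was 5.47, 5.94 and 6.40 in rete embryos, against 4.29, 5.42 and 6.03 in cauda embryos. The sources still overlapped, since 3 cauda embryos lay among the rete embryos. Slc2a3, a glucose transporter, was at 6.81, 67.7 and 161 CPM in rete embryos, against 0.1, 8.92 and 56.2 CPM in cauda embryos, a difference of 2.29 ± 0.62 (limma adjusted p = 0.524), and 2.19 ± 0.64 without cauda embryo 5. G6pdx, the entry enzyme of the pentose phosphate pathway, was at 731, 1066 and 1805 CPM in rete embryos, against 408, 712 and 864 CPM in cauda embryos. Its difference was 0.67 ± 0.22 (adjusted p = 0.527), with 12 of 12 rete embryos above the cauda median.

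Of 20 genes of sterol synthesis 13 had a positive difference (median 0.34, 0.21 without cauda embryo 5 and 0.18 without cauda embryo 10), beside 57.5% of all genes. At an unadjusted p under 0.05, 1 was higher and 1 lower, beside 6.52% and 1.99% of all genes. Sqle, squalene epoxidase, was at 198, 280.3 and 492 CPM in rete embryos, against 56, 151 and 388 CPM in cauda embryos, a difference of 0.91 ± 0.31 (limma adjusted p = 0.527), and Sc5d, a later enzyme of the same path, was at 6.24, 27.5 and 84.3 CPM in rete embryos, against 27.9, 35.8 and 100.2 CPM in cauda embryos, a difference of -0.85 ± 0.35 (adjusted p = 0.553). The 2 genes differed in opposite directions. Among 50 genes of oxidative phosphorylation 27 had a positive difference (median 0.03, and -0.02 to 0.17 without single embryos, the highest without cauda embryo 5). Sdhc, a subunit of complex II, was at 7.97, 12.6 and 26.3 CPM in rete embryos, against 14.6, 26.9 and 79.1 CPM in cauda embryos, a difference of -0.98 ± 0.35 (adjusted p = 0.527), and all 12 rete embryos lay below the cauda median. Atp5g3, which encodes the ring subunit of ATP synthase, was at 0.607, 5.44 and 11.1 CPM in rete embryos, against 0.1, 0.537 and 9.77 CPM in cauda embryos, a difference of 1.24 ± 0.54 (adjusted p = 0.555).

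Genes that act on tRNA and small RNA were given their own lists because sperm small RNAs are the subject of the study. Of 44 genes of tRNA charging and modification 21 had a positive difference (median -0.06, and -0.08 to 0.08 without single embryos). At an unadjusted p under 0.05, 7 were higher and 0 lower, beside 6.52% and 1.99% of all genes. Without cauda embryo 5, 2 were higher and 1 lower, beside 3.81% and 2.6%. Pus3, a pseudouridine synthase of tRNA, was at 4.12, 14.3 and 40 CPM in rete embryos, against 0.1, 5.62 and 20.3 CPM in cauda embryos, a difference of 1.71 ± 0.59 (limma adjusted p = 0.527). Rpp25, a subunit of RNase P, was at 16.9, 83.3 and 183 CPM in rete embryos, against 1.98, 22.9 and 134 CPM in cauda embryos, a difference of 1.35 ± 0.52 (adjusted p = 0.55). Of 26 genes of small RNA pathways 15 had a positive difference, with a median of 0.15, and 0.03 to 0.20 without single embryos, the lowest without cauda embryo 5. Drosha, the nuclease that cuts miRNA precursors, was at 109, 191 and 386 CPM in rete embryos, against 31, 143 and 233 CPM in cauda embryos, a difference of 0.60 ± 0.28 (adjusted p = 0.578), and its lowest cauda value is that of embryo 5. Pld6, a mitochondrial protein of piRNA synthesis, was at 0.1, 5.74 and 27 CPM in rete embryos, against 0.1, 0.1 and 21.4 CPM in cauda embryos and was listed at 0 in most of the cauda embryos.

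Of 45 translation initiation factors 31 had a positive difference (median 0.27), beside 57.5% of all genes. At an unadjusted p under 0.05, 3 were higher and 2 lower, beside 6.52% and 1.99% of all genes. Leaving out cauda embryo 5 gave counts of 0 and 1, beside 3.81% and 2.6% of all genes. Besides Eif4e3, described above, the smallest p belonged to Eif4h, a cofactor of the helicase that opens mRNA, at 27.9, 51.3 and 106 CPM in rete embryos, against 0.1, 43.4 and 86.6 CPM in cauda embryos, a difference of 1.43 ± 0.59 (limma adjusted p = 0.553) and 0.92 ± 0.48 without cauda embryo 5. Of 60 RNA-processing and chromatin regulators 39 had a positive difference (median 0.19), beside 57.5% of all genes. At an unadjusted p under 0.05, 4 were higher and 1 lower, near the 6.52% and 1.99% of all genes. Without cauda embryo 5 the median was 0.10 and 0 were higher, and without rete embryo 6 the median was 0.12. The 2 of smallest p were subunits of SWI/SNF remodelling complexes with opposite signs. Arid2 was at 24.9, 137 and 190.0 CPM in rete embryos, against 124, 163 and 272 CPM in cauda embryos, a difference of -0.77 ± 0.32 (adjusted p = 0.553). Arid1b was at 173, 215 and 358 CPM in rete embryos, against 59.1, 136 and 276 CPM in cauda embryos, a difference of 0.59 ± 0.25 (adjusted p = 0.553), with 12 of 12 rete embryos above the cauda median.

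Among 23 genes of DNA methylation and imprint protection 14 had a positive difference (median 0.13, and 0.05 to 0.27 without single embryos), beside 57.5% of all genes. At an unadjusted p under 0.05, 0 were higher and 0 lower, beside 6.52% and 1.99% of all genes. Tet1, an oxidase that starts DNA demethylation, was at 9.31, 26.6 and 108 CPM in rete embryos, against 4.34, 13.4 and 47.5 CPM in cauda embryos, a difference of 0.90 ± 0.46 (limma adjusted p = 0.594). Uhrf1, which brings the maintenance methyltransferase to replicating DNA, was at 315, 626 and 1188 CPM in rete embryos, against 109, 588 and 644 CPM in cauda embryos, a difference of 0.47 ± 0.29 (adjusted p = 0.637), and 0.22 ± 0.22 without cauda embryo 5. Imprinted genes were described by parental origin. Of 12 maternally expressed genes 3 had a positive difference (median -0.22). Of 10 paternally expressed genes 3 did, with a median of -0.22, and -0.29 to -0.06 without single embryos. The mean level of the second list had the opposite sign, a difference of 0.22 with 7 of 12 rete embryos above the cauda median. At an unadjusted p under 0.05, 2 of its genes were higher and 0 lower, beside 6.52% and 1.99% of all genes. Nap1l4, a histone chaperone gene of the first list, was at 92.8, 187 and 505 CPM in rete embryos, against 164, 278 and 349 CPM in cauda embryos, a difference of -0.40 ± 0.24 (adjusted p = 0.639). In the second list, Usp29, a deubiquitinase gene, was at 4.96, 22.9 and 60.6 CPM in rete embryos, against 0.1, 5.67 and 28.9 CPM in cauda embryos, a difference of 1.79 ± 0.60 (adjusted p = 0.527), and Jade1, a partner of a histone acetyltransferase, was at 0.1, 23.1 and 96.8 CPM in rete embryos, against 0.1, 0.33 and 28.1 CPM in cauda embryos, a difference of 2.27 ± 0.81 (adjusted p = 0.527).

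Regulators of early cell identity gave 18 of 29 positive differences (median 0.21, 0.01 without cauda embryo 5, 0.11 without rete embryo 7 and 0.33 without cauda embryo 7), beside 57.5% of all genes. Nr5a2, a nuclear receptor active at genome activation, was at 20, 64.7 and 132 CPM in rete embryos, against 1.07, 28.7 and 80.7 CPM in cauda embryos, a difference of 1.36 ± 0.47 (limma adjusted p = 0.527), and 1.40 ± 0.49 without cauda embryo 5. Rarg, a retinoic acid receptor, was at 13.3, 37.6 and 79.1 CPM in rete embryos, against 3.73, 12.5 and 68 CPM in cauda embryos, a difference of 1.10 ± 0.47 (adjusted p = 0.553). Cell-cycle and replication genes gave 41 of 64 positive differences (median 0.24), with 8 higher and 1 lower at an unadjusted p under 0.05, beside 6.52% and 1.99% of all genes. Without cauda embryo 5 these counts were 4 and 2, beside 3.81% and 2.6% of all genes. The median was 0.10 without cauda embryo 6 and 0.11 without cauda embryo 4. Cdc25c, the phosphatase that triggers mitosis, was at 20.8, 83.5 and 183 CPM in rete embryos, against 7.76, 30.8 and 98.9 CPM in cauda embryos, a difference of 1.27 ± 0.43 (adjusted p = 0.527). Ccne1, the cyclin of entry into S phase, was at 232, 382 and 541 CPM in rete embryos, against 25.6, 200.4 and 589 CPM in cauda embryos, a difference of 1.19 ± 0.41 (adjusted p = 0.527), with 12 of 12 rete embryos above the cauda median.

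Of 39 heat-shock and unfolded-protein genes 26 had a positive difference (median 0.24), with 5 higher and 1 lower at an unadjusted p under 0.05, beside 6.52% and 1.99% of all genes. Leaving out cauda embryo 5 gave 1 higher and 1 lower, beside 3.81% and 2.6% of all genes. The median was 0.10 without cauda embryo 6, 0.13 without rete embryo 2 and 0.15 without rete embryo 6. Dnajc3, a chaperone of the endoplasmic reticulum, was at 29.9, 65.9 and 100.1 CPM in rete embryos, against 67.9, 109 and 299.6 CPM in cauda embryos, and all 12 rete embryos lay below the cauda median (difference -0.94 ± 0.29, limma adjusted p = 0.524). Hspa1a, an inducible heat-shock gene whose reads cannot be told from those of its near-identical neighbour Hspa1b, was at 12.3, 60.4 and 124 CPM in rete embryos, against 0.498, 11.2 and 140.5 CPM in cauda embryos, a difference of 1.68 ± 0.60 (adjusted p = 0.527). Of 22 genes of the p53 and DNA-damage response 15 had a positive difference (median 0.30, 0.14 without cauda embryo 5 and 0.47 without cauda embryo 9). Ccng1, a p53 target, was at 9.63, 25.2 and 65.8 CPM in rete embryos, against 0.1, 16.7 and 21.2 CPM in cauda embryos, a difference of 1.40 ± 0.54 (adjusted p = 0.55).

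Proteasome genes had 19 of 38 positive differences, beside 57.5% of all genes, with a median of -0.00, and -0.08 to 0.07 without single embryos. Psmb2 and Psmb1, both subunits of its core, differed in opposite directions (-1.0 ± 0.43 and 1.18 ± 0.55, limma adjusted p = 0.553 and 0.568). Spliceosome and SR protein genes had 53 of 83 positive differences (median 0.18, and 0.11 to 0.26 without single embryos), led by the splicing factor Srsf6 (1.35 ± 0.52, adjusted p = 0.55) and Eif4a3, a core protein of the exon junction complex (0.74 ± 0.31, adjusted p = 0.553). Zfp zinc-finger genes had 99 of 164 positive differences, near the 57.5% of all genes, with a median of 0.18. At an unadjusted p under 0.05, 14 were higher and 3 lower, beside 6.52% and 1.99% of all genes. Without cauda embryo 5, 87 of 164 were positive, beside 53.6% of all genes, and the median was 0.02. In that fit 7 were higher and 5 lower, beside 3.81% and 2.6%. Zfp142 was at 52.8, 101 and 237 CPM in rete embryos, against 17.7, 78.4 and 110.5 CPM in cauda embryos, a difference of 0.97 ± 0.34 (adjusted p = 0.527).

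**Figure D4:**
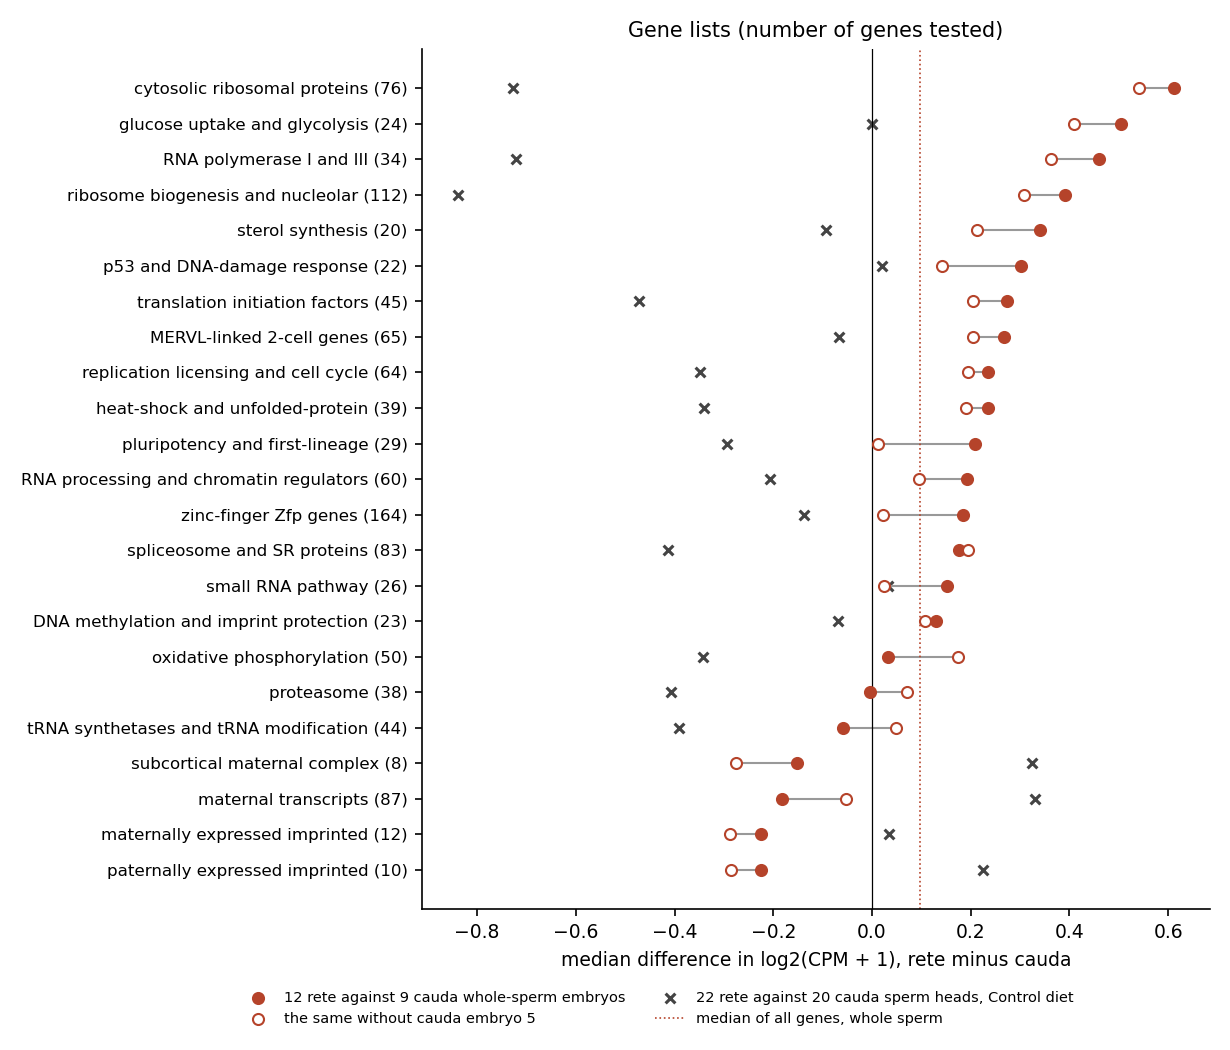
Median difference in log2(CPM + 1), rete minus cauda, over the tested genes of each list (numbers of genes in brackets) for whole-sperm embryos, for the same without cauda embryo 5 and for embryos of sperm heads from Control-fed males, with a dotted line at the whole-sperm median of all genes (0.10). Cytosolic ribosomal protein genes are at 0.61 in whole-sperm embryos and at -0.73 in head embryos.

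Transcripts of sperm and of the cells around them were looked for because a whole sperm carries its own RNA and could carry some of its surroundings. Of 25 sperm transcripts listed 4 were in the table, all with a positive difference, and 3 were higher at an unadjusted p under 0.05. The shares of all genes were 57.5% and 6.52%. Without cauda embryo 5, 2 were higher at that level, beside 3.81% of all genes. Hspa2, a heat-shock gene of spermatocytes that other cells also use, was at 21.6, 129 and 243 CPM in rete embryos, against 10.4, 41.2 and 126 CPM in cauda embryos, a difference of 1.25 ± 0.40 (limma adjusted p = 0.527). Odf2, a gene of sperm tail fibres that is also used at centrosomes, was at 163, 349 and 783 CPM in rete embryos, against 92.1, 211 and 386 CPM in cauda embryos, a difference of 0.77 ± 0.28 (adjusted p = 0.544). Ldhc, the lactate dehydrogenase of the germ line, was at 1.21, 9.71 and 37.2 CPM in rete embryos, against 0.1, 2.9 and 38.9 CPM in cauda embryos, a difference of 1.36 ± 0.66 (adjusted p = 0.583), and Txndc2, a thioredoxin of sperm, was at 68, 161 and 233 CPM in rete embryos, against 45.5, 106 and 240.5 CPM in cauda embryos, a difference of 0.41 ± 0.29 (adjusted p = 0.702). None passed, and the groups overlapped for each. Of the sperm markers fixed for the check only Odf2 and Ldhc were in the table, and Tnp1, Tnp2, Odf1, Akap4 and Smcp were not analysed here, so whether sperm RNA contributed was not tested. Of 6 testicular somatic markers Gata4 was in the table (difference 0.45 ± 0.50), of 6 epididymal markers Aqp9 (-0.41 ± 0.29), and of 6 cumulus markers Amhr2, Gja1 and Serpine2 (1.62 ± 0.85, 0.74 ± 0.69 and -0.68 ± 0.37), and none passed. The difference of Gata4 was no longer positive without cauda embryo 5. The cumulus markers summed to 101, 197 and 294 CPM in rete embryos, against 91.9, 226 and 586 CPM in cauda embryos.

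The difference between sperm sources was then set against the one in embryos made with sperm heads of Control-fed males, in 1 fit of 63 embryos, to test whether it depends on what part of the sperm was injected. This interaction is the whole-sperm difference minus the head difference. Of 7894 genes tested, 2 passed by limma (0.0253%), one in each direction, where 1345 (17%) had an unadjusted p under 0.05. Akirin2, a nuclear factor linking transcription with chromatin, was at 21.6, 72.2 and 182 CPM in rete and 43.4, 95.8 and 412 CPM in cauda whole-sperm embryos, and at 116, 164 and 584 CPM in rete and 28.6, 76.8 and 224 CPM in cauda head embryos. It was highest in rete head embryos and showed no such order in whole-sperm embryos, with a head difference of 1.35 ± 0.25 (adjusted p = 0.00769, where 0.0507% of genes passed) and an interaction of -2.08 ± 0.44 (adjusted p = 0.0483). Ascc2, a subunit of a transcription coactivator and ribosome rescue complex, was at 9.6, 49.2 and 107 CPM in rete and 1.49, 16.9 and 26.3 CPM in cauda whole-sperm embryos, and at 6.81, 31.8 and 125 CPM in rete and 16.4, 64.3 and 102.6 CPM in cauda head embryos. Its interaction was 2.34 ± 0.50 (adjusted p = 0.0483), with 11 of 12 rete embryos above the cauda median in whole sperm. Akirin2 lies on chromosome 4 at 34550615 to 34566965 and Ascc2 on chromosome 11 at 4637696 to 4685699 of the mm10 assembly.

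Both calls were close to the threshold and depended on single embryos. When each of the 63 embryos was left out in turn, Akirin2 passed in 20 and Ascc2 in 19 of the fits, and no gene passed in 42. Leaving out cauda whole-sperm embryo 3 gave 160 calls, cauda head embryo 23 gave 156, cauda whole-sperm embryo 9 gave 19, rete whole-sperm embryo 11 gave 8 and rete whole-sperm embryo 9 gave 5. Whole-sperm embryos were also sequenced more deeply than the Control head embryos, whose medians were 1104056 reads for rete and 1111768 reads for cauda, so preparation and depth cannot be told apart in this test. The table's header also codes the cauda site differently, as CA for whole-sperm and CA2 for head embryos, with no meaning given for the codes.

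The next genes by p did not pass. On the positive side these were the adhesion gene Epcam (2.94 ± 0.67, limma adjusted p = 0.0622), Ankrd35 (2.90 ± 0.67), the spindle gene Ckap2 (2.07 ± 0.49) and Ctsc, a lysosomal protease (3.84 ± 0.91), the last 3 with adjusted p = 0.0622. Epcam was at 15.6, 59.7 and 116 CPM in rete and 0.66, 11 and 58.6 CPM in cauda whole-sperm embryos, and at 3.57, 154 and 471 CPM in rete and 75.7, 233 and 436 CPM in cauda head embryos. On the negative side were Abhd17b, a depalmitoylating enzyme (-2.10 ± 0.53, adjusted p = 0.0975), the ubiquitin ligase gene Siah2 (-1.08 ± 0.29, adjusted p = 0.109), the cadherin gene Cdh2 (-2.04 ± 0.59) and the adaptor gene Shb (-1.43 ± 0.42), the last 2 with adjusted p = 0.111. For these 8 genes the whole-sperm and head differences had opposite signs.

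**Figure D5:**
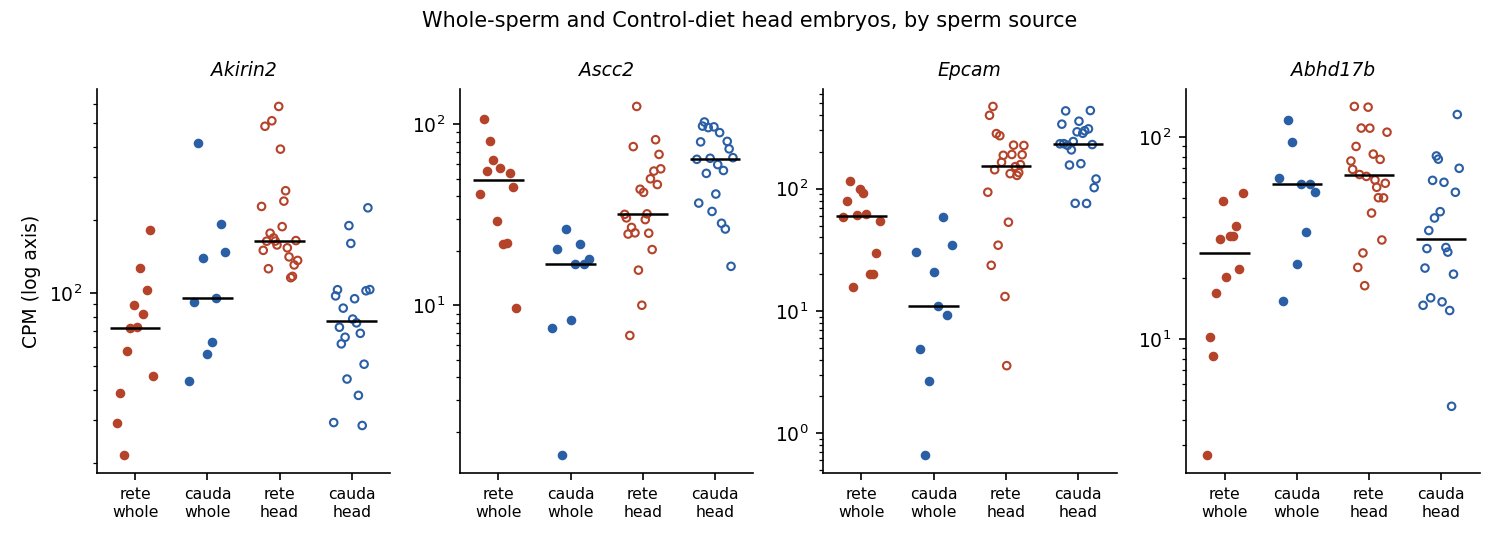
CPM on a log axis of 4 genes in rete and cauda whole-sperm embryos (filled, 12 and 9) and in rete and cauda head embryos of Control-fed males (open, 22 and 20), with lines at the medians. Akirin2 is highest in rete head embryos (median 164 CPM), while Ascc2 is lower in cauda whole-sperm embryos (median 16.9 CPM) than in the other groups.

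Over whole lists the 2 preparations differed in sign for ribosome genes. At an unadjusted p under 0.05 the interaction was positive for 1089 genes (13.8%) and negative for 256 (3.24%), and it was positive at any p for 4501 (57%), with a median of 0.16. Among cytosolic ribosomal protein genes it was positive for 76 of 76, 46 of them at that level, and 0 passed. In Control head embryos 0 of these 76 genes had a positive rete minus cauda difference (median -0.73), against a background of 43.3% of all genes. For ribosome biogenesis genes the interaction was positive for 107 of 112, 43 of them at an unadjusted p under 0.05, and 0 passed. Their head difference was positive for 0 of 112 (median -0.84). The members of a list were measured in the same embryos, so these counts are not independent observations.

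The levels of ribosomal protein genes in head embryos were 2.94, 6.24 and 7.99 in rete and 4.11, 6.99 and 7.58 in cauda embryos, where the values are again lowest, median and highest. For ribosome biogenesis genes they were 3.20, 6.60 and 7.51 in rete and 4.19, 7.10 and 7.75 in cauda head embryos. Some rete head embryos lay far below the rest. Maternal transcripts had the opposite sign to ribosome genes in both preparations. Their median difference was -0.18 in whole-sperm and 0.33 in head embryos, 16 of 87 interactions were positive, and 3 positive and 12 negative ones had an unadjusted p under 0.05. MERVL-linked genes had 40 of 65 positive interactions, 11 at that level, where the shares of all genes were 57% and 13.8%. In glycolysis, Slc2a3 had a head difference of -1.23 ± 0.49 and an interaction of 3.52 ± 0.85 (limma adjusted p = 0.0622), and in sterol synthesis Sqle had a head difference of -0.55 ± 0.20 and an interaction of 1.46 ± 0.35 (adjusted p = 0.0622), neither passing. No member of any list passed. Across the 7782 genes tested in both, which are not independent, the whole-sperm and head differences correlated with r = -0.34 as a description, from embryos that the 2 contrasts do not share.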

How the data were processed

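Per the labels' protocols, each embryo was collected in TCL buffer and its library was built with a Nextera kit for single cells. Bowtie and the mm10 genome are named in the submitters' processing notes, and how reads were counted, with which annotation and with what use of strand is not given in the sources used here. In the 1 table that the authors deposited, 7894 genes have values read as CPM because the columns of whole-sperm embryos sum to between 94.5 and 98.1% of 1000000, and low values are multiples of a common step. A further column of the deposited table, a score by which genes are sorted, is never below 5 and was not used. Its origin is not known, so low genes may have been removed, which was not tested. Zeros are written as 0.1 (2.05% of whole-sperm values). The step gave each embryo's depth, 587709 to 6058308 reads, so that 1 read is worth 0.165 to 1.70 CPM. Of low values a median of 84.2% were whole reads (79.9 to 89.2%, tolerance 0.001 reads), too few to treat them as counts.

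Groups came from the labels, and the table's header split the embryos the same way, coding rete whole-sperm embryos as Test and cauda ones as CA. The 21 whole-sperm embryos were fitted alone with limma 3.58.1 in R 4.3.3, using its trend and robust options on log2(CPM + 1), which understates differences of low genes. Tests were two-sided, on genes reaching 5 CPM in 9 or more embryos, with Benjamini-Hochberg adjusted p under 0.05 as threshold. The source by preparation fit held 63 embryos. Other tools were Python 3.11.15 with scipy 1.17.1, pandas 2.3.3, matplotlib 3.10.9 and numpy 2.4.6.

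Genes were matched to RefSeq positions on GRCm38.p6, also called mm10, by accession (7845) or symbol (38), and 11 symbols stored as dates were restored. Genes named were the 5 of smallest p per direction with a mean of at least 10 CPM, since none passed, the 2 of smallest p in each of 23 lists with at least 5 members tested, and the 5 of smallest p per direction for the interaction. Stage, sperm and somatic markers were named besides, and 2 genes that the rule names are not reported here. The comparison and the gene lists were chosen with earlier results of these data known. Sex-linked markers, mitochondrially encoded genes and blood markers were not analysed here. Alternatives were other pseudocounts, filters, scalings, embryo weights, covariates, a rank-sum test, other embryos in the fit and leaving out each embryo. The replicate numbers of the labels only name embryos.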

Additional observations from a re-analysis of the deposited data

Results flagged for a closer look

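Among the cauda whole-sperm embryos, the highest and the lowest embryo were compared with the rest by Dixon's ratio, the gap to the nearest embryo over the whole range, in 87 groups of 9 embryos. The 12 rete embryos are too many for this ratio and were not compared in this way. The ratio lay above its 95% critical value in 9 of the 87 groups, and in 8 of the 9 the embryo was cauda embryo 5. Chance alone gives about 1 in 20 for a group fixed beforehand. These groups share the same embryos, and many of the genes were chosen by their p in them, so the count cannot be judged by that rate. For the genes reaching 1 CPM the ratio was 0.668, with 6696 genes in cauda embryo 5 and 7479 to 7869 in the other cauda embryos. For the mean level of Zfp zinc-finger genes it was 0.619, with that embryo lowest at 3.77, where the others lay between 4.74 and 5.33. It was also lowest for Drosha (0.593), Arid1b (0.503), Uhrf1 (0.669), G6pdx (0.5) and Ascc2 (0.513), and highest for Bub3 (0.506). Cauda embryo 4 was lowest for Zbed3 (0.554). The part of cauda embryo 5 in each difference is given by the values without it, and the cause was not tested.

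The rete minus cauda difference itself differed between whole-sperm and Control head embryos for Akirin2, with an interaction of -2.08, and for Ascc2, with an interaction of 2.34, by limma at adjusted p = 0.0483 for each.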

How the results depend on the processing

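The limma count of genes between rete and cauda whole-sperm embryos was 0 in the 14 other settings run with limma and without each of the 21 embryos, and the rank-sum test also called 0. At an unadjusted p under 0.05, genes higher in rete numbered 282 with detected genes as a covariate, 296 without the embryo low in detected genes and 291 with the replicate block, and genes lower in rete 292 after quantile normalization, 257 with detected genes as a covariate and 86 with all embryos of the study in the fit. Leaving out each embryo gave 296 to 771 higher and 115 to 249 lower. The interaction called 2 genes, but 0 with a pseudocount of 0.1 or of 5, with detected genes as a covariate, without embryos low in detected genes, with the replicate block, with heads of both diets or without the 2 shallowest embryos (chosen after seeing the data). It called 1 after quantile normalization or median-of-ratios scaling, 16 at a threshold of 0.1 and 127 with embryo weights, and 0 to 160 without single embryos (chosen after seeing the data), where 824 to 1375 were positive and 193 to 356 negative at an unadjusted p under 0.05. Negative interactions at that level numbered 498 after quantile normalization, 396 after median-of-ratios scaling, 387 with embryo weights and 77 with heads of both diets. The cause was not tested. Among the genes named by their p, no direction reversed. The markers were not followed through these settings, and the difference of Gata4 was no longer positive without cauda embryo 5. Medians near 0 changed sign over the settings and left-out embryos for 5 lists, namely the subcortical maternal complex (-0.28 to 0.11), tRNA genes (-0.18 to 0.08), small RNA pathways (-0.02 to 0.20), oxidative phosphorylation (-0.10 to 0.19) and the proteasome (-0.17 to 0.07). The replicate numbers did not pair the embryos: over 9 shared numbers the correlation of deviations was -0.303 to 0.218, 3 were over 0.1, and 2 embryos correlated best with their own number. Counting error is large for genes with values near that of 1 read.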

Other observations

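The spread among embryos of 1 source was itself uneven over genes. Among the 3520 genes with a mean of at least 50 CPM over the 21 embryos, the SD within a source of log2(CPM + 1) had a median of 0.74. The widest spread was that of Trim43c, a 2-cell gene with near-identical copies (SD 2.47), at 0.1, 48.5 and 594 CPM in rete embryos, against 0.226, 22.6 and 144 CPM in cauda embryos. It was followed by the zinc-finger genes Zfp775 (SD 2.45) and Zscan5b (SD 2.44), and Zscan5b was at 5.32, 116 and 499.9 CPM in rete embryos, against 0.219, 45.2 and 517 CPM in cauda embryos. The ranges of the sources overlapped widely for both genes given with values. The narrowest spread was that of Agtpbp1, an enzyme that trims glutamates from tubulin (SD 0.26), at 414, 536 and 848 CPM in rete embryos, against 402, 558 and 638 CPM in cauda embryos. The zinc transporter gene Slc39a6 (SD 0.27) and Zfr, an RNA-binding zinc-finger gene (SD 0.28), came next. These genes were chosen by their spread, which is given as a description.

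Cauda embryo 5 lay outside the range of the other 20 whole-sperm embryos in many genes. Of the 3520 genes it was below all others in 925 and above all others in 483, whereas rete embryo 1 was below in 575 and above in 174, and no other embryo was below in more than 364 or above in more than 332. The genes furthest above were oocyte transcripts in part. H1foo, the oocyte linker histone gene, was at 4645 CPM, against 29.3 to 982 CPM in the other 20 embryos (median 205). Slbp, whose protein binds histone mRNA, was at 5769 CPM, against 146 to 1723 CPM in the other 20 embryos (median 323), and Bcl2l10, an oocyte gene of the Bcl2 family, at 9383 CPM, against 110.4 to 1677 CPM in the other 20 embryos (median 669). Furthest below was Sesn2, a stress-induced gene, at 0.33 CPM, against 60.2 to 562 CPM in the other 20 embryos (median 218). Ficd, an enzyme of the endoplasmic reticulum, was at 4.13 CPM, against 111 to 1637 CPM in the other 20 embryos (median 514), and Mta2, a subunit of a histone deacetylase complex, at 1.32 CPM, against 28.1 to 779 CPM in the other 20 embryos (median 185). These genes were chosen after their values were seen, and the cause was not tested.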
